A study of Mus musculus with 12 samples.

Results

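The 8 genes described here are S100a8, S100a9, Csf3r, Cxcr2, Cxcl1, Cxcl2, Mmp8 and Retnlg, 6 of them genes that neutrophils express and 2 of them genes for chemokines that attract neutrophils. They were chosen by name, with earlier results of these data known. Each is the 1 entry in a table of 56923 Ensembl gene IDs whose symbol is on that list, and all 8 passed the filter on low counts that left 16839 genes for testing. RNA of whole liver had been sequenced from 12 wild-type C57BL/6J mice, 6 weeks old when the experiment began, in 4 groups of 3 biological replicates. Every mouse, those of the control group included, received carbon tetrachloride, a hepatotoxin whose repeated injection scars the liver, as 200 µL of a 7.5% solution in olive oil into the peritoneum 2 times a week for 6 weeks. The control group had this injury with no curcumin (0 mg/kg). The low, medium and high groups had, besides, daily gavage of curcumin, a polyphenol from turmeric, for 2 weeks at 25, 50 or 100 mg/kg. The labels do not say whether control mice were gavaged, and mice were kept 3 to a cage, so cage and group may coincide. Uninjured liver was not analysed here, so each comparison asks how livers with the same injury differed with curcumin.

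Neutrophils are short-lived white cells that leave the blood early after tissue injury. S100a8 and S100a9 encode the subunits of calprotectin, the calcium- and zinc-binding protein that fills much of the neutrophil cytosol, and monocytes make it too. Csf3r is the receptor for granulocyte colony-stimulating factor, which drives neutrophil production, and Cxcr2 is the receptor by which neutrophils follow the chemokines Cxcl1 and Cxcl2. These chemokines are made by injured and activated cells of the tissue, in the liver by hepatocytes, endothelial cells, stellate cells and macrophages, and their genes are well-known targets of NF-κB. Mmp8 is the neutrophil collagenase, stored in granules, and Retnlg encodes a resistin-like protein of mouse myeloid cells.

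The sequences just upstream of the transcription starts are shown for calprotectin and for the chemokines, the pairs whose members lie side by side on a chromosome. They are the RefSeq windows on GRCm38.p6 (a build other than that used for alignment), 250 bases each on the gene's own strand, in lower case. Capitals mark the exact 10-base NF-κB motif GGGAATTTCC in Cxcl1 (chr5:90890995-90891244, plus strand) and Cxcl2 (chr5:90903649-90903898, plus strand), the PU.1 motif GAGGAAGT in S100a8 (chr3:90668821-90669070, plus strand, where it reads ACTTCCTC) and the C/EBP motif TTGCNNAA in S100a9 (chr3:90695722-90695971, minus strand).
Cxcl1: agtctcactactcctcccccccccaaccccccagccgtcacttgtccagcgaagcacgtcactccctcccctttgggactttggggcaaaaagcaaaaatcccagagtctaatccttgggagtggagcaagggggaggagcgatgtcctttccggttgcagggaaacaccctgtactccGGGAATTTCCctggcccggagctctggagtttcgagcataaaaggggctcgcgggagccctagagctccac
Cxcl2: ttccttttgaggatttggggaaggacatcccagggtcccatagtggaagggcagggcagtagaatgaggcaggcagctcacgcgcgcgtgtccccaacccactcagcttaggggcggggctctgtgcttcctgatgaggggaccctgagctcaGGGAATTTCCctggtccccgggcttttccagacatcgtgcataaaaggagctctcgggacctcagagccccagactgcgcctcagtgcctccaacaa
S100a8: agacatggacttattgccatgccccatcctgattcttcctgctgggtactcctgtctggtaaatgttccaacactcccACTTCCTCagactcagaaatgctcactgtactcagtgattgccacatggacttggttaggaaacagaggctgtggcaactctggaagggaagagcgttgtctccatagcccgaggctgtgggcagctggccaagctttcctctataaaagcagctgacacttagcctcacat
S100a9: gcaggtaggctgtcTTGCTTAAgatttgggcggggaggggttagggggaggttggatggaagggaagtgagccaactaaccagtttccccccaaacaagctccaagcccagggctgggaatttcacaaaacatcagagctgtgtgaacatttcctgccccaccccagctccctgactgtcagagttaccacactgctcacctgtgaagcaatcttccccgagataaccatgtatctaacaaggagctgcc
The NF-κB motif began 71 bases upstream of the start in Cxcl1 and 97 bases upstream in Cxcl2, and it opens their longest shared stretch, gggaatttccctgg, of 14 bases. The 10 letters searched were the opening of that stretch, so their presence in these 2 windows was fixed beforehand. Searched on both strands, the motif was present in 29 of 32851 RefSeq windows of 250 bases before to 50 after the start (0.0883%). None of the other 6 genes held it in its window. The wider NF-κB consensus, which includes that motif, was in 8.46% of windows, and among the 8 genes in Cxcl1, Cxcl2 and Csf3r, in Csf3r at 129 bases upstream. GAGGAAGT was in 3.2% of windows, and among the 8 genes in S100a8 and Mmp8. TTGCNNAA was in 10.8%, and among the 8 in S100a9, Mmp8 and Retnlg. These matches describe the letters only, and no binding was measured.

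The libraries held 36015134 to 70376474 counts. Mitochondrially encoded transcripts took 30.3% to 64.7% of them, and 4 libraries, all from curcumin mice, lay under 50%. Expression is given as CPM, the counts of a gene relative to its library's total scaled by TMM, a factor computed from the bulk of the genes. One library, control replicate 2, was the highest of the 12 for 7 of the 8 genes, against 9.8% of the 16839 tested genes that were highest there. The main values are therefore also given without it. Ly6g, a defining surface marker of mouse neutrophils, had 9 counts over all 12 libraries. Of 14 granule genes, Elane and Ctsg, proteases of immature neutrophils, were at 0 in every library, and Chil3 (9 counts), Cd177 (14), Olfm4 (27), Camp (38), Mpo (38), Ltf (50) and Ngp (68) were low. Mmp9 had 186 counts, Prtn3 427, Cybb 2118, Lcn2 4527 and Lyz2 8420, of which at least Cybb, Lcn2 and Lyz2 are also made by other liver cells. Among surface and signalling genes Fpr1, the formyl peptide receptor, had 669 counts and Slfn4, a myeloid gene, 1596. Trem3 (17), Cxcr1 (23), Trem1 (38) and Il1r2 (66) of the same list were low. The neutrophil label was thus met by some of the genes named here, and not by Ly6g, Elane, Ctsg and the others that were low. In bulk RNA, fewer cells of a type and less RNA per cell cannot be told apart. With all 12 libraries in 1 filtered and TMM-scaled fit, no gene passed an adjusted p of 0.05 in any comparison of edgeR's quasi-likelihood test, so differences below are given as values. Other settings of the same test gave 0 to 8 calls.

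Per kilobase of exon, the highest of the 8 genes was Cxcl1, with a median over the 12 livers of 8.45 CPM per kb. S100a9 followed at 4.7, S100a8 at 2.48, Csf3r at 0.927, Retnlg at 0.32, Cxcl2 at 0.1, Cxcr2 at 0.0755 and Mmp8 at 0.0517 CPM per kb. Each gene lay above the next in 11 or 12 of the 12 libraries, except that Cxcl2 lay above Cxcr2 in 9 and Cxcr2 above Mmp8 in 7, so the order of the lowest 3 was not resolved. Mmp8 had 81 counts over all libraries, Cxcl2 167, Cxcr2 210 and Retnlg 225. Of their values, 9 were listed at 0, and 3 counts would be 0.0426 to 0.0833 CPM, depending on the library. Of the 96 values of the 8 genes, 0 were 1 or 2. The whole table held fewer values of 2 (5407) than of 3 (8782), so a listed 0 may stand for a small count. Low replicates 1 and 2, which had the fewest counts outside the mitochondrial genes, held 6 of these 9.

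The calprotectin genes lay lower in the curcumin livers, without overlap for S100a9 and with overlap for S100a8. S100a9 had 3.55, 10.1 and 3.63 CPM in the control livers (replicates 1, 2 and 3), 2.5, 2.63 and 2.05 CPM at 25 mg/kg, 1.46, 1.84 and 2.52 CPM at 50 mg/kg and 2.41, 1.76 and 2.03 CPM at 100 mg/kg. All 9 curcumin livers lay below all 3 control livers, and control replicate 2 was far above the other 2. The mean was 2.13 ± 0.404 CPM in the curcumin livers (SD, n = 9) and 5.77 ± 3.77 CPM in the control livers (SD, n = 3), a log2 fold change of -1.44 ± 0.29 (SE) in edgeR's quasi-likelihood test (unadjusted p = 0.000326, Benjamini-Hochberg adjusted p = 0.225). Only 1.2% of tested genes (202) had every curcumin liver below every control liver. By dose, the log2 fold change of S100a9 against control was -1.28 ± 0.39 at 25 mg/kg, -1.58 ± 0.39 at 50 mg/kg and -1.48 ± 0.39 at 100 mg/kg (edgeR adjusted p of 0.781, 0.451 and 0.352). The values at the 3 doses lay within 1 SE of each other, and without control replicate 2 they were -0.59 ± 0.3, -0.89 ± 0.3 and -0.79 ± 0.3. Over all doses without that liver, S100a9 still showed no overlap between the 9 curcumin livers and the other 2 controls, as did 2.58% of tested genes, and the fold change was -0.76 ± 0.25 (edgeR unadjusted p = 0.0102, adjusted p = 0.826).

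S100a8, the partner subunit, had 2.74, 7.72 and 1.72 CPM in the control livers, 0.741, 1.2 and 1.99 CPM at 25 mg/kg, 1.01, 1.82 and 1.98 CPM at 50 mg/kg and 1.72, 1.2 and 1.51 CPM at 100 mg/kg. The groups overlapped at every dose, because control replicate 3 lay among the curcumin livers. The mean was 1.46 ± 0.448 CPM in the curcumin livers (SD, n = 9) and 4.06 ± 3.21 CPM in the control livers (SD, n = 3). The pooled log2 fold change was -1.47 ± 0.39 (edgeR adjusted p = 0.29), and -0.6 ± 0.37 without control replicate 2 (adjusted p = 0.856). By dose it was -1.61 ± 0.53, -1.35 ± 0.52 and -1.46 ± 0.52 from 25 to 100 mg/kg, and -0.74 ± 0.45, -0.47 ± 0.44 and -0.59 ± 0.44 without that liver. Control replicate 2 held 3.46 times the mean of the other 2 controls for S100a8 and 2.82 times for S100a9.

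The growth factor receptor Csf3r followed the calprotectin genes, with an even larger excess in control replicate 2. Csf3r had 4.88, 19.1 and 4.04 CPM in the control livers, 3.08, 3.88 and 1.78 CPM at 25 mg/kg, 1.84, 3.61 and 4.08 CPM at 50 mg/kg and 2.28, 2.66 and 3.0 CPM at 100 mg/kg. Of the 9 curcumin livers 8 lay below every control liver, and medium replicate 3 lay just above control replicate 3. The mean was 2.91 ± 0.847 CPM in the curcumin livers (SD, n = 9) and 9.33 ± 8.44 CPM in the control livers (SD, n = 3), with a pooled log2 fold change of -1.69 ± 0.4 (edgeR unadjusted p = 0.00107, adjusted p = 0.25). It was -1.69 ± 0.54 at 25 mg/kg, -1.56 ± 0.54 at 50 mg/kg and -1.82 ± 0.54 at 100 mg/kg. Control replicate 2 had 4.28 times the mean of the other controls, and without it the pooled fold change was -0.62 ± 0.32 (adjusted p = 0.856) and those by dose were -0.62 ± 0.39, -0.49 ± 0.39 and -0.76 ± 0.39. Csf3r shares 96.8% of 1518 bases with the transcript AC105061.2, which had 0 counts.

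Cxcr2, the chemokine receptor, was near the limit of what these libraries measure. It had 0.227, 1.37 and 0.379 CPM in the control livers, was listed at 0 in 2 livers and at 0.0772 CPM in the other at 25 mg/kg, had 0.062, 0.275 and 0.234 CPM at 50 mg/kg, and had 0.333 and 0.305 CPM with the other liver listed at 0 at 100 mg/kg. The groups did not overlap at 25 mg/kg and overlapped at both higher doses. The 91 counts in control replicate 2 were the larger part of all control counts, the other controls having 9 and 17. At 25 mg/kg the lone liver with a value had 7 counts, and the 2 listed zeros may stand for small counts. Against control the fitted log2 fold change was -4.13 ± 1.4 at 25 mg/kg, -1.8 ± 1.19 at 50 mg/kg and -1.63 ± 1.18 at 100 mg/kg. Without control replicate 2 these were -3.06 ± 1.54, -0.66 ± 1.41 and -0.5 ± 1.41. Pooled it was -2.52 ± 0.89 (edgeR adjusted p = 0.414), and -1.41 ± 1.15 without control replicate 2 (adjusted p = 0.861). The slope over dose was -1.27 ± 1.17 per 100 mg/kg with all libraries and 0.19 without that one, so its direction rested on it.

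Retnlg, the resistin-like gene, had 0.327, 0.967 and 0.535 CPM in the control livers. It had 0.156 and 0.176 CPM with 1 liver listed at 0 at 25 mg/kg, 0.139, 0.291 and 0.202 CPM at 50 mg/kg and 0.435, 0.164 and 0.143 CPM at 100 mg/kg. All curcumin livers but high replicate 1 lay below all 3 controls. The pooled log2 fold change was -1.73 ± 0.64 (edgeR adjusted p = 0.438), and -1.23 ± 0.81 without control replicate 2. The collagenase gene Mmp8 had at most 0.21 CPM in a curcumin liver, with 4 curcumin livers listed at 0, and had 0.151, 0.227 and 0.111 CPM in the control livers. Its groups overlapped at each dose, and the pooled log2 fold change of -0.89 ± 1.18 was smaller than its SE, as was that of -0.58 ± 1.55 without control replicate 2. The pooled value of Mmp8 depended on other libraries too, being -2.65 without low replicate 3. It was -4.34 ± 1.87 without the 4 libraries with a mitochondrial share under 50%, where medium replicate 3 was the only curcumin liver with counts. Retnlg shares 82.8% of 599 bases with its paralogue Retnla, so reads may be split between them, though Retnla had 49 counts in all.

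The chemokines differed in level and in pattern. Cxcl1, the most abundant of the 8 genes, had 30.0, 45.2 and 22.7 CPM in the control livers, 17.2, 14.3 and 11.8 CPM at 25 mg/kg, 12.1, 21.4 and 39.9 CPM at 50 mg/kg and 5.09, 14.5 and 8.92 CPM at 100 mg/kg. The low and high livers all lay below every control, and at 50 mg/kg replicate 3 lay above controls 1 and 3. The mean was 16.1 ± 10.1 CPM in the curcumin livers (SD, n = 9) and 32.6 ± 11.5 CPM in the control livers (SD, n = 3), a log2 fold change of -1.13 ± 0.35 (edgeR unadjusted p = 0.00707, adjusted p = 0.328). Against control the log2 fold change of Cxcl1 was -1.18 ± 0.46 at 25 mg/kg, -0.41 ± 0.45 at 50 mg/kg and -1.78 ± 0.47 at 100 mg/kg, where the high livers averaged 9.51 ± 4.74 CPM (SD, n = 3; unadjusted p = 0.00231, adjusted p = 0.347). Leaving out medium replicate 3 made the value at 50 mg/kg -0.96.

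Cxcl1 depended less on control replicate 2 than the calprotectin and receptor genes did, that liver having 1.71 times the mean of the other controls. Without it the log2 fold change of Cxcl1 was -0.87 ± 0.5 at 25 mg/kg, -0.1 ± 0.5 at 50 mg/kg, -1.47 ± 0.5 at 100 mg/kg (edgeR unadjusted p = 0.0124, adjusted p = 0.598) and -0.82 ± 0.41 pooled (adjusted p = 0.856). The high livers remained below both other controls. In medium replicate 3, the curcumin liver with the most Cxcl1, the summed erythroid markers were 1400 CPM, the highest of all livers, with control replicate 2 next at 1360 CPM. Medium replicate 3 was also the highest liver for Lcn2 (24.8 CPM, the next 7.41) and the interleukin-1 receptor gene Il1r1 (92.6 CPM, the next 53.6). The part of these genes and markers in the result was not tested.

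Cxcl2 was rare, with 0.327, 0.151 and 0.379 CPM in the control livers, 0.112 and 0.199 CPM with 1 liver listed at 0 at 25 mg/kg, 0.217, 0.138 and 0.296 CPM at 50 mg/kg and 0.408, 0.282 and 0.111 CPM at 100 mg/kg. The groups overlapped at every dose, and control replicate 2 was the lowest control. The pooled log2 fold change was -0.59 ± 0.7 (edgeR adjusted p = 0.797), and -0.9 ± 0.8 without control replicate 2. At 100 mg/kg it was -0.08 ± 0.87, -0.39 ± 0.97 without that liver and 0.62 when scaled by library totals. Cxcl2 shares 90.0% of 561 bases with Cxcl3, another CXCR2 ligand with 18 counts in all, and reads may be split between them. Both upstream windows printed above hold the same NF-κB motif, while across the 12 livers the levels of Cxcl1 and Cxcl2 showed a Pearson r of -0.011 and a Spearman rho of 0.105 (permutation p adjusted over 28 pairs of 0.972 and 0.776), an r of 0.324 without the 2 livers farthest from the median and of 0.024 without control replicate 2. With 167 counts of Cxcl2 in all, counting error is large in this comparison.

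**Figure D1:**
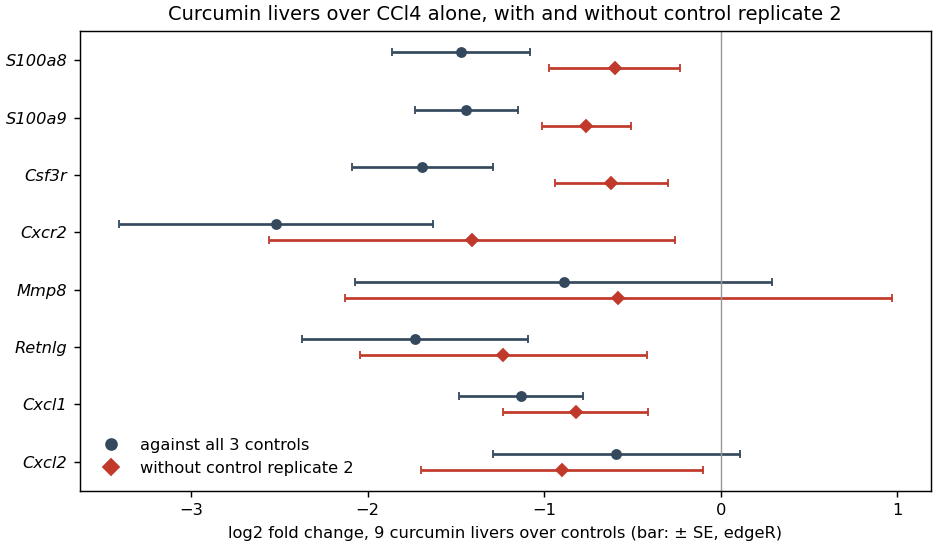
Log2 fold change of each gene in all curcumin livers against control (edgeR, bars are SE), with 3 controls (dark circles) and without control replicate 2 (red diamonds); values below 0 are lower in curcumin livers. Every value lies below 0 in both settings, and Csf3r lies at -1.69 with and -0.62 without that liver.

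Counted over the 8 genes, 0 passed the adjusted threshold in any edgeR comparison, as did 0.0% of all tested genes, of which 1008 at 25 mg/kg, 940 at 50 mg/kg, 2152 at 100 mg/kg, 1577 over all doses and 1853 for the dose slope had an unadjusted p under 0.05. DESeq2's Wald test called 42 (0.249%), 89 (0.529%), 172 (1.02%), 165 (0.98%) and 64 (0.38%) genes in the same comparisons. Those calls held S100a9 at 50 mg/kg (adjusted p = 0.0421), S100a9 and Cxcl1 at 100 mg/kg (0.0495 and 0.0278) and S100a9 and Csf3r over all doses (0.00848 and 0.0302), all lower with curcumin, where calls in that direction made up 0.178%, 0.523% and 0.505% of genes. limma with library weights called 0 (0.0%), 35 (0.208%), 224 (1.33%), 30 (0.178%) and 0 (0.0%) genes. Of the 8 genes these calls held Cxcl1 alone, at 100 mg/kg (adjusted p = 0.0404), where 0.891% of genes were called lower. At an unadjusted p under 0.05 (edgeR), 6 of 8 were lower at 25 mg/kg (3.5% of tested genes), 3 at 50 mg/kg (2.99%), 4 at 100 mg/kg (4.91%) and 6 over all doses (5.24%). The 3 genes at 50 mg/kg were S100a8, S100a9 and Csf3r, and Cxcl1 joined them at 100 mg/kg. The median log2 fold change of the 8 genes was -1.45, -1.44 and -1.47 from 25 to 100 mg/kg and -1.46 pooled, with 8 of 8 lower each time, where the median of all tested genes was 0.01, 0.02, 0.03 and 0.01, and 48.9%, 48.0%, 47.8% and 49.1% of them were lower. These comparisons share the same 3 control livers. The 8 genes were chosen with earlier results of these data known, so the shares of all tested genes are no independent measure of chance. Groups did not overlap, curcumin lower, for 5 genes at 25 mg/kg (6.36% of tested genes), 2 at 50 mg/kg (6.38%), 3 at 100 mg/kg (6.52%) and 1, S100a9, over all doses (1.2%). S100a9 was the 1 gene without overlap in all 4.

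Scaled by library totals, which put the median of all tested genes at 0.11, 0.47 and 0.71 from 25 to 100 mg/kg, 0.42 pooled and 0.75 for the dose slope, fewer of the 8 genes had an unadjusted p under 0.05 in the lower direction. They were 3 at 25 mg/kg (1.03% of tested genes), 0 at 50 mg/kg (0.38%), 1 at 100 mg/kg (0.463%), 3 pooled (0.772%) and 0 for the slope (0.291%). The medians of the 8 genes were then -1.34, -1.08 and -0.79 from 25 to 100 mg/kg, -1.09 pooled and -0.58 for the slope.

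Without control replicate 2 the TMM-scaled medians also lay nearer to 0. They were -0.81, -0.57 and -0.71 from 25 to 100 mg/kg and -0.79 pooled, still with 8 of 8 lower. At an unadjusted p under 0.05, 0 of 8 were then lower at 25 mg/kg (1.9% of tested genes), 1 at 50 mg/kg (1.65%), 2 at 100 mg/kg (3.06%) and 1 pooled (2.53%). S100a9 was the gene at 50 mg/kg and pooled, and S100a9 and Cxcl1 were those at 100 mg/kg. Without the 4 libraries with a mitochondrial share under 50%, the pooled median was -1.57, with S100a9 at -1.43 ± 0.36 (edgeR adjusted p = 0.207) and Cxcl1 at -0.77 ± 0.27. Of the rare genes, Cxcr2 lay at -3.5 ± 0.92 and Mmp8 at -4.34 ± 1.87 in that fit (edgeR adjusted p of 0.229 and 0.421).

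A straight line over dose asks whether expression moved in step with the amount of curcumin. Per 100 mg/kg the log2 slope was -1.33 ± 0.43 for S100a9 (edgeR adjusted p = 0.413), -1.6 ± 0.55 for Csf3r, -1.51 ± 0.52 for Cxcl1 and -1.23 ± 0.53 for S100a8 (adjusted p = 0.434 for each of these 3). These 4 genes passed an unadjusted p of 0.05 with a negative slope, as did 4.49% of tested genes. Of the 8 slopes 7 lay below 0, as did 47.6% of all slopes tested. The other slopes were -1.27 ± 1.17 for Cxcr2, -0.97 ± 0.82 for Retnlg, -0.81 ± 1.31 for Mmp8 and 0.21 ± 0.78 for Cxcl2. Without control replicate 2 the median slope was -0.4, against -1.25 with it, and 2 genes passed the unadjusted threshold (3.08% of tested genes). The means did not step down from dose to dose: S100a9 averaged 2.39, 1.94 and 2.07 CPM and Csf3r 2.91, 3.18 and 2.64 CPM from 25 to 100 mg/kg.

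Across the 12 livers, the level of S100a9 went with that of Csf3r (Pearson r = 0.922, Spearman rho = 0.797, permutation p adjusted over the 28 pairs of genes 0.0118 and 0.0259). With group means removed r was 0.903, without the 2 livers farthest from the median of S100a9 it was 0.609, and without control replicate 2 it was 0.713 (adjusted p = 0.107). The calprotectin pair itself had r = 0.816 and rho = 0.503 (adjusted permutation p of 0.0451 and 0.232), r = 0.626 without the 2 livers farthest from the median of S100a8, r = 0.422 without control replicate 2 (adjusted p = 0.503) and r = 0.734 with group means removed. It did not pass by rank or without that library. Cxcr2 and Retnlg had r = 0.812 and rho = 0.855 (adjusted permutation p of 0.0118 and 0.00994), r = 0.833 without the 2 farthest livers and r = 0.734 without control replicate 2 (adjusted p = 0.0199), but 0.596 with group means removed. Csf3r and Cxcl1 had r = 0.734 and rho = 0.867 (adjusted permutation p of 0.0381 and 0.00994), r = 0.736 without the 2 farthest livers and 0.701 without control replicate 2 (adjusted p = 0.107). Of the 28 pairs, 5 passed by Pearson, 3 by Spearman and 2 by Pearson without control replicate 2.

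The genes whose levels most resembled S100a9 among 10492 compared were Gngt2 (r = 0.955 over the 12 livers), Icam1 (0.94), Bin2 (0.926), Isyna1 (0.925) and Relb (0.924). Without control replicate 2 these values were 0.852, 0.8, 0.769, 0.761 and 0.808, and the genes ranked between 7 and 50. Gngt2 had 4.59 to 6.59 CPM in the curcumin livers and 8.23, 13.7 and 7.14 CPM in the control livers, without overlap, like S100a9. For Cxcl1 the closest were Wdr62 (r = 0.951), Siglecg (0.945), Gimap3 (0.925), Cyp21a2-ps (0.922) and Rev3l (0.913), and these depended little on control replicate 2, with r of 0.936, 0.952, 0.905, 0.923 and 0.928 without it. No gene was among the closest 5 of both.

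Other genes of neutrophils and of the attractant pathway were read from fixed lists, also chosen with earlier results of these data known. Of 14 genes of neutrophil granules 7 could be tested, and over all doses 6 lay lower with a median log2 fold change of -1.85, against -0.14 with 4 of 7 lower without control replicate 2 and -4.19 without the 4 libraries of low mitochondrial share. In that last fit Ngp and Ltf were listed at 0 in every curcumin liver left, so the median of -4.19 includes genes at the floor. Prtn3, the granule protease proteinase 3, had 0 to 0.514 CPM in the curcumin livers and 1.74, 2.51 and 0.468 CPM in the control livers (-2.6 ± 0.72, edgeR adjusted p = 0.309, and -2.08 without control replicate 2). Lyz2, the lysozyme of macrophages and neutrophils, lay at -0.43 ± 0.35 (0.05 without control replicate 2), Lcn2, which sequesters iron carriers of bacteria and is also made by hepatocytes, at 0.22 ± 0.64 (0.88), and Cybb, the catalytic subunit of the phagocyte oxidase, at -0.53 ± 0.31 (-0.14). None of the 7 passed the adjusted threshold.

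Of 25 neutrophil surface and signalling genes 21 were tested and all 21 lay lower over all doses, with a median of -0.99 and 9 at an unadjusted p under 0.05 (background 5.24%). Without control replicate 2, 17 of 21 lay lower with a median of -0.24, and 3 passed the unadjusted threshold (background 2.53%). Scaled by library totals, 18 of 21 lay lower with a median of -0.66, and 1 passed the unadjusted threshold (background 0.772%). Csf2rb, the shared receptor chain for GM-CSF, interleukin-3 and interleukin-5, had 1.25 to 2.25 CPM in the curcumin livers and 3.62, 5.68 and 1.96 CPM in the control livers (-1.14 ± 0.26, edgeR adjusted p = 0.235, and -0.71 without control replicate 2). Itgb2, the leukocyte integrin chain by which neutrophils hold to vessels, lay at -1.12 ± 0.29 (adjusted p = 0.272, and -0.69 without control replicate 2). Mxd1, a MAX-binding repressor high in mature neutrophils, lay at -0.17 ± 0.22 (-0.21 without control replicate 2), and Hdc, the enzyme that makes histamine, at -0.05 ± 0.22 (-0.1).

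Of 17 other attractants and growth factors 9 could be tested. Over all doses 8 lay lower with a median of -0.43, against -0.18 with 5 lower without control replicate 2, -0.93 without the 4 libraries of low mitochondrial share, and -0.15 with 5 lower when scaled by library totals. Csf3, the ligand of Csf3r, and Il17a and Cxcl15 were at 0 in all 12 libraries, and Cxcl5, another CXCR2 ligand, had 56 counts in all. The 4 most abundant were Lta4h, which makes leukotriene B4 (0.23 ± 0.19), the cytokine Il1a (-0.36 ± 0.34), and the platelet chemokines Ppbp (-0.62 ± 0.39) and Pf4 (-0.43 ± 0.35), and none passed the adjusted threshold. Without control replicate 2, Lta4h lay at 0.2, Il1a at -0.18, Ppbp at 0.08 and Pf4 at 0.03, so both platelet chemokines lost their direction. Of the 12 receptors and regulators of these signals 8 lay lower with a median of -0.38, against 7 and -0.17 without control replicate 2 and 6 and 0.01 when scaled by library totals. Among them were Zfp36, which speeds the decay of cytokine mRNAs including that of Cxcl1 (-0.52 ± 0.27, and -0.78 without control replicate 2), and Nfkbiz, a nuclear co-factor of NF-κB (-0.59 ± 0.26, and -0.44). Nfkbia, the NF-κB inhibitor, lay at -0.01 ± 0.18 (0.02 without that liver) and the interleukin-1 receptor Il1r1 at 0.28 ± 0.40 (0.26).

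Of 9 tested genes of leukocyte adhesion 7 lay lower, with a median of -0.68, against -0.41 without control replicate 2 and -0.28 with 5 lower when scaled by library totals. Icam1, the endothelial ligand of the leukocyte integrins, had 6.77 to 11.4 CPM in the curcumin livers and 11.5, 27.8 and 14.1 CPM in the control livers, without overlap (-1.05 ± 0.25, edgeR adjusted p = 0.25, and -0.57 without control replicate 2). Itgal, an integrin chain that binds Icam1, lay at -1.28 ± 0.33 (-0.41 without control replicate 2), and the endothelial Vcam1 and Pecam1 at 0.00 ± 0.36 (0.18 without that liver) and 0.06 ± 0.24 (0.34). The S100 genes outside calprotectin did not share the direction of S100a8 and S100a9: 1 of 7 lay lower over all doses, with a median of 0.61. S100a1 lay at 1.39 ± 0.83 (1.42 without control replicate 2) and S100a11 at 0.33 ± 0.54 (0.55). S100a10, the annexin A2 partner, lay at 0.80 ± 0.45 (1.11) and S100a13 at 0.61 ± 0.32 (0.46). The median of this list was -0.49 without the 4 libraries of low mitochondrial share. None of these passed the adjusted threshold.

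**Figure D2:**
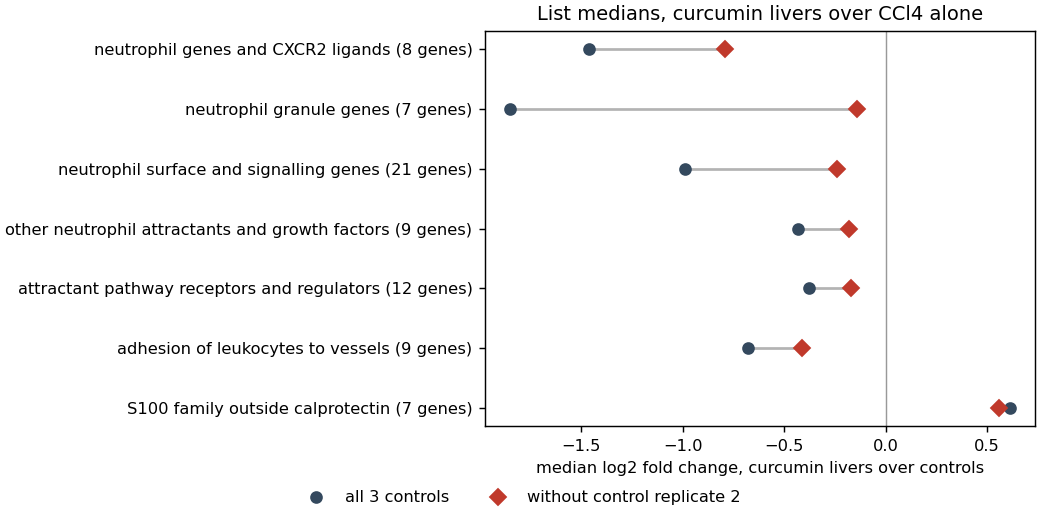
Median log2 fold change of the 8 genes and of 6 related gene lists in all curcumin livers against control, with 3 controls (dark circles) and without control replicate 2 (red diamonds). The 8 genes keep a median of -0.79 without that liver, where the granule list moves to -0.14 and the surface list to -0.24.

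Markers of other cell types differed beside the 8 genes, and their part in these results was not tested. Control replicate 2 also had the highest sum of Kupffer cell markers, 171 CPM, against 116 and 73.9 CPM in the other controls, while the curcumin livers ranged over 54.8 to 71.7 CPM at 25 mg/kg, 58.4 to 67.8 CPM at 50 mg/kg and 76.9 to 96 CPM at 100 mg/kg. Its monocyte marker sum of 71.5 CPM lay between those of the other controls, 93 and 40.4 CPM. The highest monocyte sum, 133 CPM, was in high replicate 1. That liver had the lowest summed level of the 8 genes, 12.7 CPM, a sum weighted to Cxcl1, which had 5.09 CPM there. Its Cxcl2 (0.408 CPM) was the highest of all livers, and its Cxcr2 (0.333 CPM) and Retnlg (0.435 CPM) the highest of the curcumin livers. Its S100a8 and S100a9 (1.72 and 2.41 CPM) lay above the curcumin medians of 1.51 and 2.05 CPM, and its Csf3r (2.28 CPM) below that of 3.0 CPM. Over all doses 9 of 10 Kupffer cell markers lay lower (median -0.73, and -0.38 without control replicate 2), 9 of 10 monocyte markers (-0.61 and -0.25), 9 of 9 tested erythroid markers (-1.33 and -0.51) and 8 of 10 B and plasma cell markers (-0.91 and -0.45). Hepatocyte markers lay higher for 10 of 10 (0.81 and 0.75), but for 5 of 10 (0.15) without the 4 libraries of low mitochondrial share, and their sums were 5500 to 46400 CPM in the curcumin livers and 6010 to 12100 CPM in the control livers. Of 10 eosinophil, basophil and mast cell markers 8 had under 20 counts in all and 4 were at 0. Immediate early genes, which respond to handling of tissue, lay lower for 15 of 16 (-0.98 and -0.56).

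**Figure D3:**
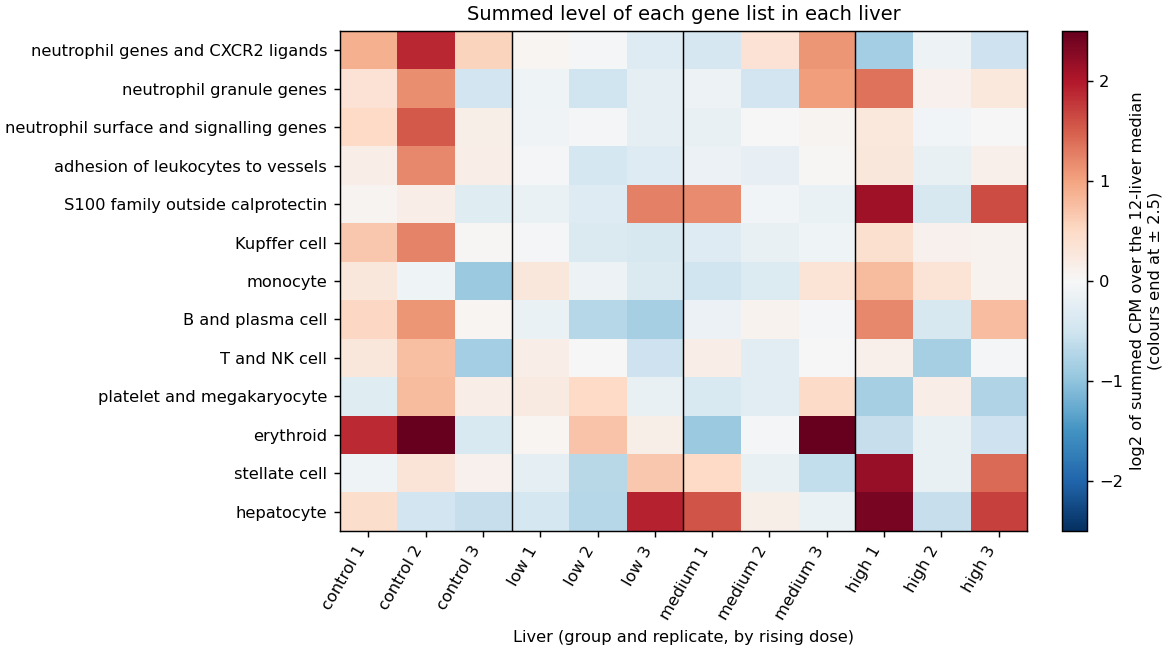
Heat map of summed CPM for the 8 genes and 12 other gene lists in each liver, as log2 over the median of the 12 livers; colours end at ±2.5. Control replicate 2 is the highest liver for the 8 genes and for the surface and signalling, adhesion, Kupffer cell, T and NK cell and platelet lists. The row of the 8 genes is weighted to Cxcl1, the most abundant of them. The erythroid list is highest in medium replicate 3, with control replicate 2 next.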

How the data were processed

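RNA of whole liver was measured in 12 libraries, grouped, with their doses and replicate numbers, by the labels. The authors deposited 1 table of raw read counts per Ensembl gene ID, whole numbers not normalized. Per the submitters' processing notes, fastp 0.23.4, STAR 2.7.10b and StringTie 2.2.1 were used with genome build mm39. The step that made the counts, its strand setting and its treatment of reads that fit several genes are not given in the sources used here. Each of the 12 columns carried a sample's label, with 0 left over. Of the IDs, 52073 (91.5%) had a symbol in GENCODE M21, which also gave exon lengths.

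Genes passing filterByExpr (16839) were fitted in R 4.3.3 with edgeR 4.0.16 (TMM, robust quasi-likelihood, all 12 libraries in 1 fit), with p-values adjusted by Benjamini-Hochberg over all tested genes and a threshold of 0.05. Each dose, all doses together (the mean of the 3 dose coefficients) and a slope over dose were tested against control. SEs are the size of the fold change over the square root of F, and the tests were checked on simulated counts. DESeq2 1.42.0, limma 3.58.1 (voom with library weights), other scalings, no filter on low counts, a replicate block and leaving out each library in turn were the alternatives. A fit without the 4 libraries with a mitochondrial share under 50% was added after seeing the data. Scaling by totals without mitochondrial transcripts left out 37 mitochondrial genes and 11 near-identical nuclear copies, found with BLAST+ 2.17.0 (95% identity or more along 80% or more of a transcript). Correlations used log2 CPM (prior count 2) and 100000 permutations, two-sided. With 36015134 to 70376474 counts a library, 3 counts are 0.0426 to 0.0833 CPM, a floor for counting error only.

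The 8 genes and the gene lists were chosen with earlier results of these data known. Named genes are the 8, the 4 most abundant tested genes of each pathway list and the 5 genes most like S100a9 or Cxcl1 among those with a symbol, a mean log2 CPM not under 0 and no predicted or receptor-segment name. Other genes, among them those too rare to test, are named outside that rule, for their counts.

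Libraries of a group differed beyond sampling noise (chi-square per degree of freedom of at least 42.0), so none was a copy of another. The labels call the 3 mice of a group biological replicates and give no shared litter, batch or day for equal replicate numbers.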

Additional observations from a re-analysis of the deposited data

Results flagged for a closer look

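In medium replicate 3, Cxcl1 stood at 39.9 CPM, far above the other curcumin livers, of which the next had 21.4 CPM. The gap was 0.531 of the range of the 9 curcumin livers, beyond Dixon's 95% critical value for that number of livers. Chance puts about 1 in 20 such groups past that value, and 8 genes were examined. The summed erythroid markers (1400 CPM), Lcn2 (24.8 CPM) and Il1r1 (92.6 CPM) were also highest in that liver, and their part was not tested.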

How the results depend on the processing

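Of 789 recomputed fold changes of the 8 genes, 773 kept their direction and their side of the threshold, 6 passed it (all with DESeq2 or limma) and 10 reversed. Those that reversed were Cxcl2 at 50 mg/kg with library totals (0.06), Cxcl2 at 100 mg/kg with library totals (0.62) and with the replicate block (0.05), the dose slope of Cxcl2 with totals without mitochondrial transcripts (-0.09) and with limma (-0.12), and some values with 1 library left out, which ranged from -0.54 to 0.29 for Cxcl2 at 100 mg/kg, from -0.31 to 0.58 for the slope of Cxcl2 and from -2.01 to 0.19 for the slope of Cxcr2. The correlation of Cxcl1 with Cxcl2 was 0.024 without control replicate 2 and 0.0934 with totals without mitochondrial transcripts. The cause was not tested. Genes called, 0 in each edgeR comparison, were 42, 89, 172, 165 and 64 with DESeq2 at 25, 50 and 100 mg/kg, over all doses and for the slope, and 35, 224 and 30 with limma at 50 and 100 mg/kg and over all doses. With only the groups compared they were 1 at 25 mg/kg and 8 at 50 mg/kg, and over all doses 3 with no filter and 3 without the 4 libraries of low mitochondrial share. Leaving out 1 library gave 0 to 2 at 25 mg/kg (2 without low replicate 3) and 0 to 1 over all doses (1 without any 1 of the controls). Scaling by library totals put the median of all genes at 0.42 over all doses and that of the 8 genes at -1.09. Totals without mitochondrial transcripts put them at -0.16 and -1.69.

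Whether equal replicate numbers pair the mice was not settled. Over 18 same-numbered pairs the correlation of deviations ran from -0.257 to 0.445, and 6 of 12 libraries correlated best with one of their own number. How many would do so by chance was not computed. The replicate block gave 0 calls in each comparison, with S100a9 at -1.35 over all doses.

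Depth limits Cxcr2, Cxcl2, Mmp8 and Retnlg, which had 81 to 225 counts in all. With 3 mice a group, 1 library, control replicate 2, sets much of the size of the differences from control, and no comparison includes an uninjured liver.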

Other observations

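Several neutrophil and attractant genes too rare to test had their counts in few libraries. High replicate 1, the library with the most counts outside mitochondrial transcripts (36377767), held 39 of the 56 counts of the CXCR2 ligand Cxcl5, 31 of the 38 of the antimicrobial peptide gene Camp, 31 of the 38 of the myeloid receptor Trem1 and 17 of the 27 of the granule protein gene Olfm4. Control replicate 2 held the other 17 counts of Cxcl5 and all 17 of Trem3. It also held 109 of the 179 counts of Acod1, which was not too rare to test and makes itaconate in activated myeloid cells. These genes were picked out after their counts were seen.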
